A study of Mus musculus with 6 samples.

Results

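Cholesterol and fatty acid synthesis was followed here through 30 named genes: 18 that carry acetyl-CoA to cholesterol, 6 that make and desaturate long-chain fatty acids, and 6 that regulate or transport sterols. Members were found by the gene symbol of their probe set in the platform annotation, with 1 probe set per gene, the one with the highest mean over the 6 arrays. A probe set with a symbol was found for 28 of the 30, which leaves 17 sterol, 6 fatty acid and 5 regulatory or transport genes out of 12393 genes named on the array. Acat2 and Insig1 had no probe set under their own symbol in the annotation used, so their expression was not analysed here. All 28 also passed the filter on dim probe sets, a level of log2 4 reached by 3 or more of the 6 arrays, which kept 7644 genes.

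The cells were mouse lines derived from lung adenocarcinomas. There were 3 of them, named KPR4, KPR5 and KPR8, of C57/B6-129SvJae strain. In each line 1 culture was given 250 nM 4-OH tamoxifen in ethanol, with RNA taken 24 h later, and 1 was given ethanol vehicle. All cultures were grown in DME medium with 10% FBS and antibiotic. The labels state that the drug reactivates p53 expression in these lines. They do not describe the allele or the recombinase, and no array of drug-treated cells lacking the p53 switch was analysed here, so an effect of the drug itself and an effect of p53 cannot be told apart. Each group therefore held 3 arrays of 3 different lines, and within a line each treatment was measured once.

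The mevalonate pathway condenses acetyl-CoA into isoprenoid units, joins these into squalene and closes and trims the ring to cholesterol. Fatty acid synthesis starts from the same acetyl-CoA, which ATP citrate lyase makes from citrate. SREBP transcription factors switch on both branches: SREBP-2, from Srebf2, acts mainly on sterol genes and SREBP-1, from Srebf1, mainly on fatty acid genes. The factors wait in the endoplasmic reticulum membrane bound to SCAP, and the INSIG proteins hold SCAP there when sterols are plentiful.

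The arrays were close in overall level, with medians between 4.56 and 4.63 on the log2 scale, with values reaching 14.34. The treatment was checked on p53 targets, since the p53 gene was not analysed here: Cdkn1a, encoding p21, was higher with the drug by 5.62, 3.50 and 4.77 log2 in KPR4, KPR5 and KPR8, and Mdm2 by 3.12, 3.01 and 2.70. All 7 epithelial markers were at log2 4 or above on every array, but only 2 of 9 lung alveolar markers were, and those that define the lineage, Nkx2-1 (2.40 to 2.83) and Sftpc (2.61 to 3.13), lay near the array background. Of 6 adipocyte markers 2 were above log2 4 on every array, while Adipoq, which defines that cell type, did not exceed 2.19. The summed level of the adipocyte markers was 19.97 to 24.63 on the drug-treated arrays and 20.85 to 25.21 on the vehicle arrays.

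With 4-OH tamoxifen, most genes of cholesterol and fatty acid synthesis did not pass the test, and the few that did moved in different directions. The fatty acid genes Fasn and Elovl6 fell, by 0.52 and 0.49 on the log2 scale, while Insig2, a brake on SREBP processing, rose by 0.55. Idi1 of the mevalonate pathway rose by 0.44 on 1 probe set and not on another. Thus 2 of 28 members were higher and 2 lower at an adjusted p under 0.05 in limma, where the p-values are adjusted over all 7644 genes. Among all genes tested 10.5% were higher and 8.94% lower, together 19.5%, so the share of members called, 14.3%, was not above that of the array. With any 1 line left out, 1 member was called: Idi1 without KPR4, Fasn without KPR5 and Stard4 without KPR8. By class, 1 of 17 sterol genes was higher and 0 lower, 0 of 6 fatty acid genes were higher and 2 lower, and 1 of 5 regulators was higher and 0 lower. The median log2 change was -0.05 for the sterol genes, -0.19 for the fatty acid genes and 0.00 for all genes tested. Before adjustment 1 sterol, 3 fatty acid and 3 regulatory genes had p under 0.05, together 7 of 28 or 25%, below the 32.7% of all genes tested. The change had the same sign in all 3 lines for 9 of 28 members, against 51.7% of all genes. None of the 28 changed on average by as much as log2 1, and the 95% interval of the change lay within log2 1 of zero for all 28 and within log2 0.5 for 16.

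**Figure D1:**
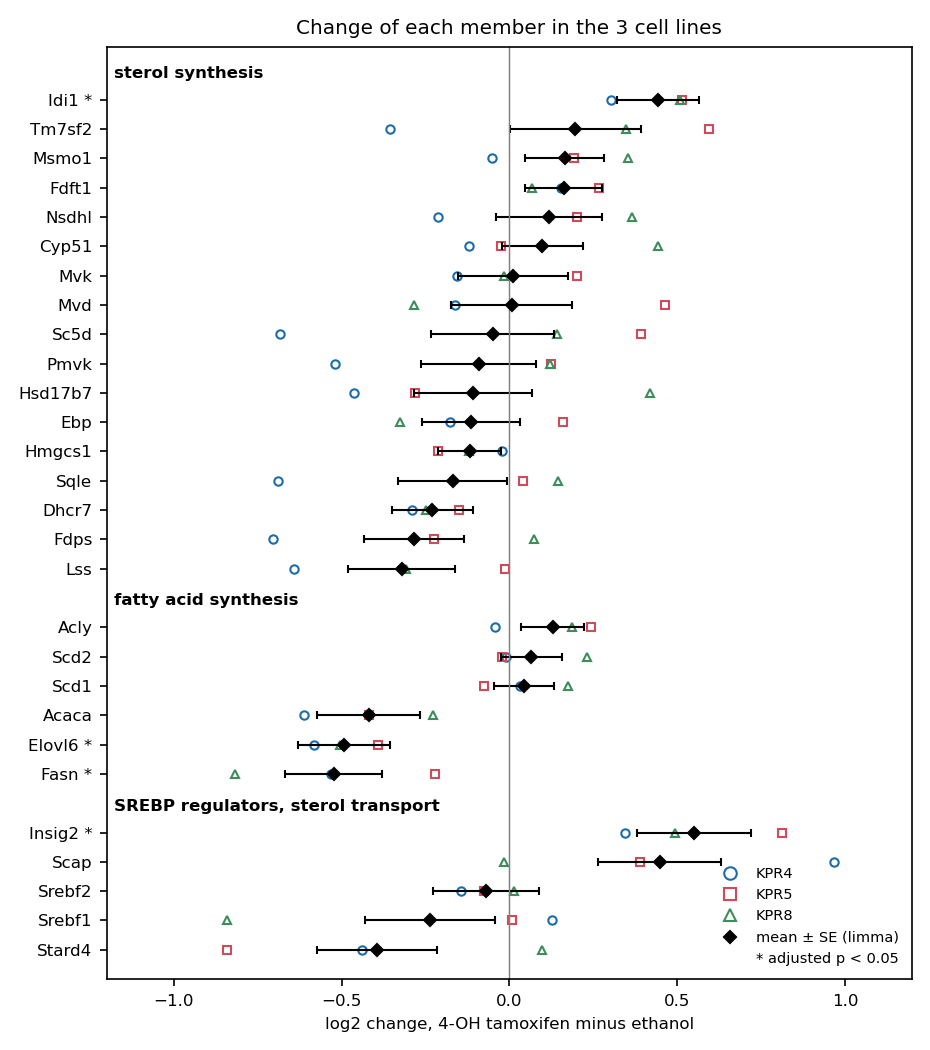
Log2 change of each of the 28 members, 4-OH tamoxifen minus ethanol, in KPR4, KPR5 and KPR8 (open symbols, 1 array pair each) and the mean with its standard error from limma (black diamonds); a star marks an adjusted p under 0.05. Fasn, Elovl6 and Acaca lie left of zero in every line, Insig2 lies right of zero in every line, and KPR4 is the lowest of the 3 lines for many sterol genes.

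On the probe sets used, 3 fatty acid members, Acaca, Fasn and Elovl6, read lower with the drug in every line. Of them 2, Fasn and Elovl6, passed the test. Elongation genes outside the members did not pass in limma: Elovl1, Elovl4, Elovl5 and Elovl7 changed by 0.07, -0.19, -0.10 and 0.06. Fasn, the synthase that assembles palmitate, had log2 levels of 8.76 in KPR4, 9.47 in KPR5 and 9.33 in KPR8 with 4-OH tamoxifen, against 9.29, 9.69 and 10.15 with ethanol. Every drug-treated array lay below the vehicle array of its own line, although the groups overlap across lines. The change was -0.52 ± 0.14 (SE, limma, adjusted p = 0.0194), or 1.44-fold lower. Elovl6, which elongates palmitate to stearate, read 9.12 in KPR4, 9.36 in KPR5 and 8.19 in KPR8 with 4-OH tamoxifen, against 9.70, 9.75 and 8.70 with ethanol. The within-line differences, KPR4 first, were -0.58, -0.39 and -0.51, and its change in limma was -0.49 ± 0.14 (adjusted p = 0.0194). A dimmer probe set of Elovl6 was lower in KPR4 (-0.67) and KPR5 (-0.78) and higher in KPR8 (0.40), with a mean change of -0.35 (limma over all probe sets, adjusted p = 0.310). The call of Fasn ended without KPR4 (-0.52, adjusted p = 0.065) or without KPR8 (-0.38, adjusted p = 0.137), and that of Elovl6 ended without any 1 of the 3 lines (adjusted p = 0.0506 to 0.162) and with the mean of its probe sets (-0.42, adjusted p = 0.0822).

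The promoters of Fasn and Elovl6 are shown because both members fell. Each window runs from 250 bases before to 50 bases after the annotated start in RefSeq on GRCm38.p6, read 5′ to 3′ on the gene's strand. Capitals mark CCAAT on either strand (written ATTGG on the other), the box bound by NF-Y, a known partner of SREBP, and TCACNCCAC on either strand, a form of the sterol regulatory element. The windows lie at chr11:120824498-120824797, minus strand, for Fasn and at chr3:129532136-129532435, plus strand, for Elovl6.
Fasn: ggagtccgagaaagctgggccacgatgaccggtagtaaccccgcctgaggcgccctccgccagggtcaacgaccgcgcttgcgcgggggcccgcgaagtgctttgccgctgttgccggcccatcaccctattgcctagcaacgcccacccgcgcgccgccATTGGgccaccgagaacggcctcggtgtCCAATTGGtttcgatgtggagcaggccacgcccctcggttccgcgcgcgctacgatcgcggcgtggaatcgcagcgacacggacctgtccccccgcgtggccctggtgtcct
Elovl6: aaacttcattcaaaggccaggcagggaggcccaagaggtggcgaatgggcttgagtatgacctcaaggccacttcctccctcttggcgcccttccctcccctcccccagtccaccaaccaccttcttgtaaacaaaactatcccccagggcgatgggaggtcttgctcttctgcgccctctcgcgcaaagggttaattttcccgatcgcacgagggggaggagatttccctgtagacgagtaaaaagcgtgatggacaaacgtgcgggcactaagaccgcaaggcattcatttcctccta
The Fasn window holds 3 CCAAT boxes, 2 of which overlap as inverted copies, and the Elovl6 window holds 0. Neither holds TCACNCCAC.

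Acaca, encoding acetyl-CoA carboxylase, which commits acetyl units to fatty acids, had levels of 3.84 in KPR4, 4.26 in KPR5 and 4.50 in KPR8 with 4-OH tamoxifen, against 4.45, 4.68 and 4.73 with ethanol. It was lower in every line by its values, but the change of -0.42 ± 0.15 did not pass (limma, adjusted p = 0.0671), and the levels are close to the filter. With genes summarised by the mean of their probe sets, of which Acaca has 1, it passed (limma, adjusted p = 0.046). Acly, encoding ATP citrate lyase, read 12.25 in KPR4, 12.39 in KPR5 and 12.59 in KPR8 with 4-OH tamoxifen, against 12.29, 12.15 and 12.40 with ethanol. The desaturase gene Scd1 read 12.77 in KPR4, 12.41 in KPR5 and 12.63 in KPR8 with 4-OH tamoxifen, against 12.74, 12.49 and 12.46 with ethanol. Scd2, a second stearoyl-CoA desaturase, read 12.44 in KPR4, 12.38 in KPR5 and 12.58 in KPR8 with 4-OH tamoxifen, against 12.45, 12.40 and 12.35 with ethanol. The groups overlap for all of these genes, and the changes of Acly, Scd1 and Scd2, at 0.13 ± 0.09, 0.04 ± 0.09 and 0.07 ± 0.09, did not pass (limma, adjusted p = 0.375, 0.789 and 0.670). Dimmer probe sets gave values of the opposite sign: -0.33 for Scd1 and -0.50 for 1 of those of Scd2 (limma over all probe sets, adjusted p = 0.175 and 0.124). That Scd2 probe set was lower in KPR4 (-0.75) and KPR5 (-1.14) and higher in KPR8 (0.39). Another dimmer Scd2 probe set had a mean change of -0.01. Other Acly probe sets past the filter had mean changes of 0.14 and -0.26. The brightest probe sets of Acly, Scd1 and Scd2 all lay above log2 12, and whether they were saturated was not examined, since scanner files were not used here.

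Among the regulators, Insig2 rose. INSIG2 retains the SCAP-SREBP complex in the endoplasmic reticulum, which limits the supply of active SREBP. Its levels were 7.03 in KPR4, 7.33 in KPR5 and 7.21 in KPR8 with 4-OH tamoxifen, against 6.69, 6.51 and 6.71 with ethanol. All 3 drug-treated arrays lay above all 3 vehicle arrays, a separation seen upward in 7.48% of all genes. The change was 0.55 ± 0.17, or 1.46-fold (limma, adjusted p = 0.0338). The other 2 probe sets of Insig2 moved the same way in every line, by 0.83, 0.76 and 1.19 log2 and by 0.15, 0.42 and 0.90 in KPR4, KPR5 and KPR8. Their mean changes were 0.93 and 0.49 (limma over all probe sets, adjusted p = 0.00252 and 0.0857). On the probe set used, the call ended with any 1 line left out (adjusted p = 0.0544 without KPR4, 0.21 without KPR5 and 0.0905 without KPR8) and with no filter on dim probe sets (adjusted p = 0.055).

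RefSeq gives Insig2 3 windows on chromosome 1, which shows that the gene has several annotated starts, and the furthest upstream one is printed because it alone holds the marked boxes. It lies at chr1:121332540-121332839, minus strand, in GRCm38.p6, with capitals as above.
Insig2: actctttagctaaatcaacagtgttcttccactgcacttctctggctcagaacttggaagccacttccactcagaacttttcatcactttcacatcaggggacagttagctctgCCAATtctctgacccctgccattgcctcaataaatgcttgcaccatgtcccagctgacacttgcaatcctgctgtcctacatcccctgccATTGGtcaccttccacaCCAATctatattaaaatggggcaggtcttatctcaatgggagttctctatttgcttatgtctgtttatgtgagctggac
It holds 3 CCAAT boxes and no TCACNCCAC. The arrays do not tell which start was used.

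**Figure D2:**
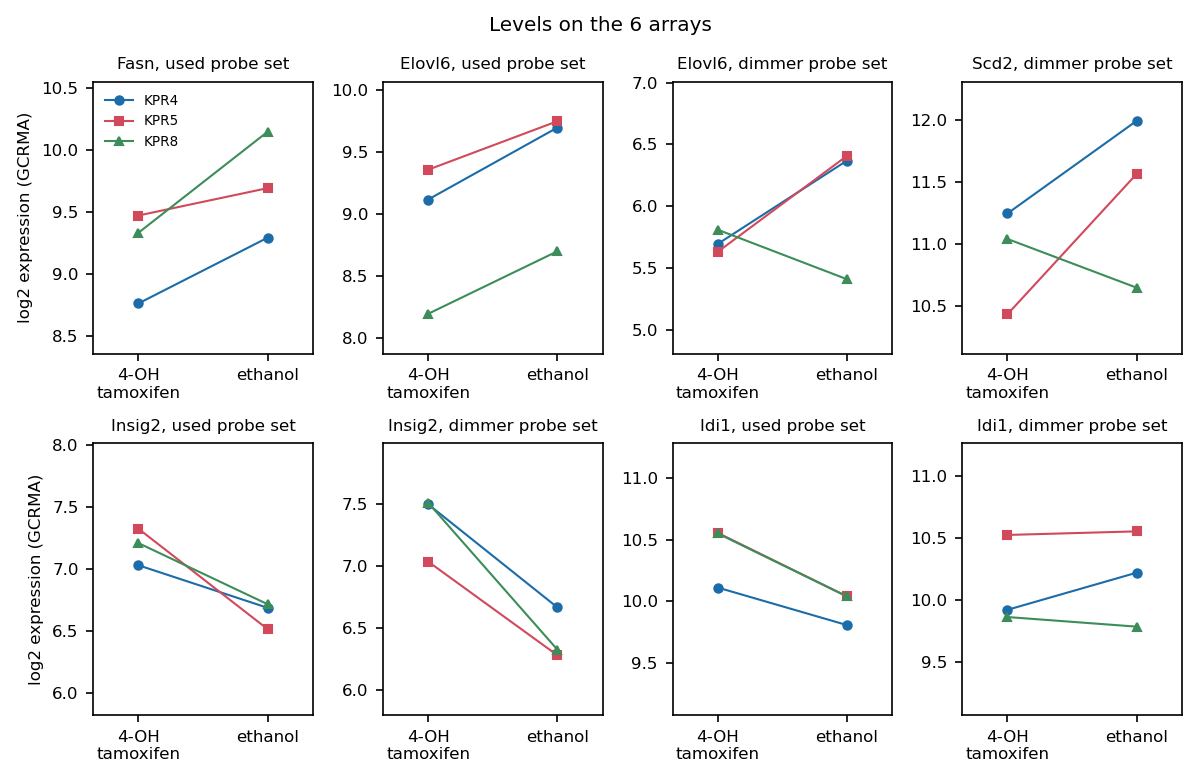
Log2 expression on the 6 arrays for 8 probe sets, with 4-OH tamoxifen left of ethanol and a line joining the arrays of each cell line; each panel spans the same log2 range. Both Insig2 panels slope the same way in every line, while Idi1 and Elovl6 differ between their probe sets, and the dimmer Scd2 probe set slopes opposite ways in KPR8 and in the other lines.

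Scap, the escort of SREBP to the Golgi, read 8.67 in KPR4, 8.05 in KPR5 and 7.74 in KPR8 with 4-OH tamoxifen, against 7.70, 7.66 and 7.76 with ethanol. The drug-treated arrays span a wide range and the vehicle arrays lie close together, and the difference was present in KPR4 (0.97) and KPR5 (0.39) but not in KPR8 (-0.02). Its mean change of 0.45 ± 0.18 did not pass (limma, adjusted p = 0.102). Srebf1, encoding SREBP-1, read 7.76 in KPR4, 7.29 in KPR5 and 6.73 in KPR8 with 4-OH tamoxifen, against 7.64, 7.28 and 7.58 with ethanol. It was lower in KPR8 alone by its values, at -0.84, and the mean change of -0.24 ± 0.19 did not pass (limma, adjusted p = 0.441). Srebf2, encoding SREBP-2, read 7.50 in KPR4, 7.34 in KPR5 and 7.30 in KPR8 with 4-OH tamoxifen, against 7.64, 7.42 and 7.29 with ethanol, a change of -0.07 ± 0.16 with a 95% interval of -0.41 to 0.27 (limma, adjusted p = 0.809). Stard4, a soluble carrier that moves cholesterol between membranes, read 8.83 in KPR4, 7.82 in KPR5 and 7.41 in KPR8 with 4-OH tamoxifen, against 9.27, 8.67 and 7.32 with ethanol. Its change of -0.40 ± 0.18 did not pass (limma, adjusted p = 0.137), being -0.44 in KPR4 and -0.84 in KPR5 against 0.10 in KPR8, and without KPR8 it passed, at -0.64 (limma, adjusted p = 0.0448). A dimmer Stard4 probe set gave another pattern, with -0.40 in KPR4, -0.08 in KPR5 and -0.42 in KPR8. The mean change of that probe set, -0.30, did not pass (limma over all probe sets, adjusted p = 0.247).

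In the upper mevalonate pathway, Idi1 was the sole sterol gene called. IDI1 interconverts the isoprenoid units that are joined into longer chains. Its levels were 10.11 in KPR4, 10.55 in KPR5 and 10.55 in KPR8 with 4-OH tamoxifen, against 9.81, 10.04 and 10.04 with ethanol. All drug-treated arrays lay above all vehicle arrays, as in 7.48% of all genes, and the change was 0.44 ± 0.12 (limma, adjusted p = 0.019). A second Idi1 probe set of almost the same brightness read 9.92 in KPR4, 10.53 in KPR5 and 9.86 in KPR8 with 4-OH tamoxifen, against 10.22, 10.56 and 9.78 with ethanol. Its mean change was -0.08 (limma over all probe sets, adjusted p = 0.704), so the rise of Idi1 rests on the choice of probe set. The call also ended without KPR5 (adjusted p = 0.0979), without KPR8 (adjusted p = 0.0752) and without a trend in the variance (adjusted p = 0.0516).

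The other genes that lead to isoprenoid diphosphates did not pass. The changes were -0.12 for Hmgcs1, which makes HMG-CoA, 0.01 and -0.09 for the kinases Mvk and Pmvk, 0.01 for the decarboxylase Mvd and -0.29 for Fdps, which makes farnesyl diphosphate. Hmgcs1 had 4 probe sets, with mean changes between -0.20 and 0.31. Fdps read 9.89 in KPR4, 9.95 in KPR5 and 9.22 in KPR8 with 4-OH tamoxifen, against 10.59, 10.17 and 9.15 with ethanol, with -0.70 in KPR4 as the largest difference within a line and 0.07 in KPR8. At the branch to sterols, the squalene synthase gene Fdft1 was at 0.16 and the squalene epoxidase gene Sqle at -0.17.

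Among the genes that close and trim the ring, Lss, which forms lanosterol from squalene epoxide, read 7.82 in KPR4, 8.44 in KPR5 and 8.43 in KPR8 with 4-OH tamoxifen, against 8.46, 8.46 and 8.74 with ethanol. All drug-treated arrays lay below all vehicle arrays, a separation seen downward in 8.2% of all genes. Yet the change of -0.32 ± 0.16 did not pass (limma, adjusted p = 0.179). On the other probe sets of Lss the groups overlap, with mean changes of -0.28 and -0.22. Dhcr7, which makes cholesterol from 7-dehydrocholesterol, also had all drug-treated arrays below all vehicle arrays, with a change of -0.23 ± 0.12 (limma, adjusted p = 0.208). Msmo1, a methyl sterol oxidase, read 10.85 in KPR4, 11.09 in KPR5 and 10.79 in KPR8 with 4-OH tamoxifen, against 10.91, 10.89 and 10.44 with ethanol, and Tm7sf2, a sterol reductase, read 6.63 in KPR4, 6.66 in KPR5 and 4.93 in KPR8 with 4-OH tamoxifen, against 6.99, 6.06 and 4.58 with ethanol. In both the groups overlap, with changes of 0.16 ± 0.12 and 0.20 ± 0.19 (limma, adjusted p = 0.367 and 0.527). The remaining changes were 0.10 for the demethylase gene Cyp51, 0.12 and -0.11 for the dehydrogenase genes Nsdhl and Hsd17b7, -0.11 for the isomerase gene Ebp and -0.05 for the desaturase gene Sc5d. The 95% interval of the mean change over the lines, on the probe set used, lay within log2 0.5 of zero for 12 of the 17 sterol genes. It does not bound the change within a line: Sc5d and Pmvk, among the 12, changed by -0.68 and -0.52 in KPR4. The others were Idi1, which was called, and Fdps, Sqle, Lss and Tm7sf2, which were not called and whose intervals reached beyond log2 0.5.

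The promoter windows of most sterol genes held a box that the choice of members did not use. Of the 30 listed members 24 had a window, including Acat2 and Insig1, which were not measured. CCAAT occurred on either strand in at least 1 window of 14 of 15 sterol genes, all but Acat2, against 41.1% of all 27025 genes with such a window. It occurred for 2 of 4 fatty acid genes, Acly and Fasn, and for 4 of 5 regulators. TCACNCCAC was found for 1 of the 24, Hmgcs1, against 1.44% of all genes, and the E-box CACGTG for 5 of 24, Hsd17b7, Sc5d, Dhcr7, Scap and Insig1, against 8.09%. The Hmgcs1 window, at chr13:119690101-119690400, plus strand, is printed as the example that holds both kinds of marked box, with capitals as above.
Hmgcs1: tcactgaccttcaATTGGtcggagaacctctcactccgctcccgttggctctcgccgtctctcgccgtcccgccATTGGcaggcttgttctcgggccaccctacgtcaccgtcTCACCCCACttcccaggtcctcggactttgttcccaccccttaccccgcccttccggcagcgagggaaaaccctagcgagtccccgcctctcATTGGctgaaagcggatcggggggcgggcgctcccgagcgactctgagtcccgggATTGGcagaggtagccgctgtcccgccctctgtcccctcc
It holds 1 TCACNCCAC and 4 CCAAT boxes. Dhcr7, Pmvk, Srebf1, Scap and Insig2 have several windows, which gives them more chances of a match, and a match is a description of these letters alone.

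The direction of the sterol genes differed between the lines. In KPR4, 15 of 17 sterol genes read lower with the drug, in KPR5 6 of 17 and in KPR8 6 of 17. Of all 7644 genes, 3728 read lower in KPR4, 3549 in KPR5 and 4125 in KPR8. Across KPR4, KPR5 and KPR8 the median log2 change of the sterol genes was -0.21, 0.16 and 0.12, where the median of all genes was 0.01, 0.03 and -0.04. Counting every probe set of a sterol gene that passed the filter, 25 of 28 were lower in KPR4, 11 of 28 in KPR5 and 10 of 28 in KPR8. These probe sets share genes and arrays. With 1 array per line and treatment these differences between lines were not tested.

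In KPR4, 9 of 28 members moved by log2 0.5 or more, or 32.1%, above the 20.9% of all genes. In KPR5 and KPR8, 4 of 28 did in each, or 14.3%, below the 25.6% and 23.4% of all genes in these lines. In KPR4, 5 sterol genes were lower by that much and 0 higher: Fdps (-0.70), Sqle (-0.69), Sc5d (-0.68), Lss (-0.64) and Pmvk (-0.52). Sqle is a rate-limiting step of the sterol branch, and Sc5d acts near its end. With the 3 fatty acid genes Acaca, Elovl6 and Fasn that makes 8 of 28 members lower in KPR4, where 9.31% of all genes were, and 1 higher, where 11.6% were. In KPR5, 1 member was lower (10.7% of all genes) and 3 were higher (14.9%). In KPR8, 3 members were lower (12.9%) and 1 was higher (10.5%). On the probe sets used, 0 members were called at log2 1 or more in any line, where 4.74%, 5.05% and 4.4% of all genes were in KPR4, KPR5 and KPR8. Other probe sets passed log2 1 for Insig2 in KPR8 (1.19) and for Scd2 in KPR5 (-1.14). RNA integrity was read from control probe sets as the log2 level at the 3' end less that at the 5' end. For Gapdh this difference changed with the drug by 0.24, 0.29 and -0.40 across KPR4, KPR5 and KPR8, and for Actb by 0.16, 0.39 and -0.07. Their part in these values was not tested.

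The fatty acid genes read lower than the sterol genes in each line when summarised by the median, by an amount that varied. The fatty acid median was -0.29 in KPR4, -0.15 in KPR5 and -0.03 in KPR8. The sterol median minus the fatty acid median was 0.08, 0.31 and 0.15 in the same order, and 0.14 on the mean changes over lines. These are descriptions over chosen genes with no test. On their brightest probe sets, the members Acaca, Fasn and Elovl6 were lower in all 3 lines by their values. Acly, Scd1 and Scd2 read lower in 1 to 2 lines. Other probe sets did not keep this split. Across KPR4, KPR5 and KPR8, a dimmer Scd1 probe set changed by -0.28, -0.12 and -0.59. Dimmer Acly probe sets changed by -0.44, -0.20 and -0.15 and by 0.26, 0.07 and 0.11. The dimmer Elovl6 probe set was higher in KPR8, at 0.40. Scd1 and Scd2 gave lower mean values on other probe sets. The size of the gap between the classes therefore depends on the probe sets chosen: it was 0.36 with the most variable probe set of each gene and 0.265 with the mean of its probe sets.

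**Figure D3:**
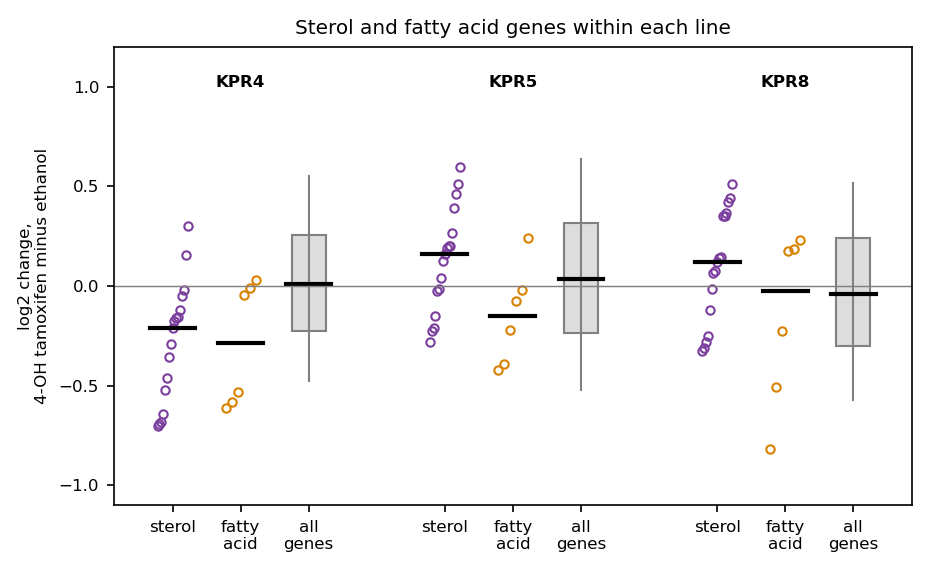
Log2 change, 4-OH tamoxifen minus ethanol, of the 17 sterol and 6 fatty acid genes (circles) within each cell line, with black bars at the medians; grey boxes span the middle quartiles of all 7644 genes and their whiskers the 10th to 90th percentiles. The sterol median is below zero in KPR4, at -0.21, and above zero in KPR5 and KPR8, at 0.16 and 0.12.

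The level of many members differed between the lines themselves, whatever the treatment. In limma's F-test on the line terms 12 of 28 members passed, 42.9%, against 42% of all genes tested. They were 9 sterol genes, the fatty acid genes Fasn and Elovl6, and Stard4. The widest range was that of Tm7sf2, whose mean over the 2 arrays of a line was 6.81 in KPR4, 6.36 in KPR5 and 4.76 in KPR8 (limma F-test, adjusted p = 2.3e-05). Both KPR8 arrays lay below all arrays of the other lines, and those of KPR4 and KPR5 overlap. Stard4 followed the same order on the probe set used, at 9.05, 8.24 and 7.36 (adjusted p = 1.2e-04), and so did Fdps, at 10.24, 10.06 and 9.19 (adjusted p = 8.2e-04). A dimmer Stard4 probe set was highest in KPR5 under both treatments. It read 5.81 in KPR4, 6.72 in KPR5 and 5.83 in KPR8 with 4-OH tamoxifen, against 6.21, 6.80 and 6.25 with ethanol. In Fdps the KPR4 and KPR5 arrays overlap. On the probe set used, Elovl6 was lowest in KPR8 as well (limma F-test, adjusted p = 2.1e-04). Its line mean was 8.45 there, against 9.41 in KPR4 and 9.55 in KPR5. A dimmer Elovl6 probe set read highest in KPR8 with 4-OH tamoxifen, at 5.81 against 5.70 in KPR4 and 5.63 in KPR5. With ethanol it read lowest in KPR8, at 5.41 against 6.37 in KPR4 and 6.41 in KPR5. Fasn had another order, being lowest in KPR4 at 9.03, with 9.58 in KPR5 and 9.74 in KPR8 (adjusted p = 0.011).

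Sc5d was lowest in KPR4. Its log2 levels were 7.96 in KPR4, 9.55 in KPR5 and 9.13 in KPR8 with 4-OH tamoxifen, against 8.64, 9.15 and 8.99 with ethanol, and the line means were 8.30, 9.35 and 9.06 in KPR4, KPR5 and KPR8 (limma F-test, adjusted p = 0.00464). The other sterol genes past this test were Ebp, highest in KPR4 at 9.65 against 8.84 in KPR5 and 8.71 in KPR8, and Mvd, Pmvk and Hmgcs1, lowest in KPR8, with Fdft1 highest in KPR5 and Cyp51 lowest in KPR4. The place of Hmgcs1 depended on the probe set. Its other probe sets read highest in KPR8 with 4-OH tamoxifen: 11.74, 11.68 and 9.86, against at most 11.39, 11.19 and 9.77 in the other lines. With ethanol they did not: KPR8 read 11.11, 11.02 and 9.39, against 11.30, 11.26 and 10.24 in KPR4. Insig2, Scd2, Dhcr7 and Nsdhl had the highest adjusted p in this test, between 0.757 and 0.905. Leaving out KPR4 or KPR8 left 7 members past the test in each case.

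**Figure D4:**
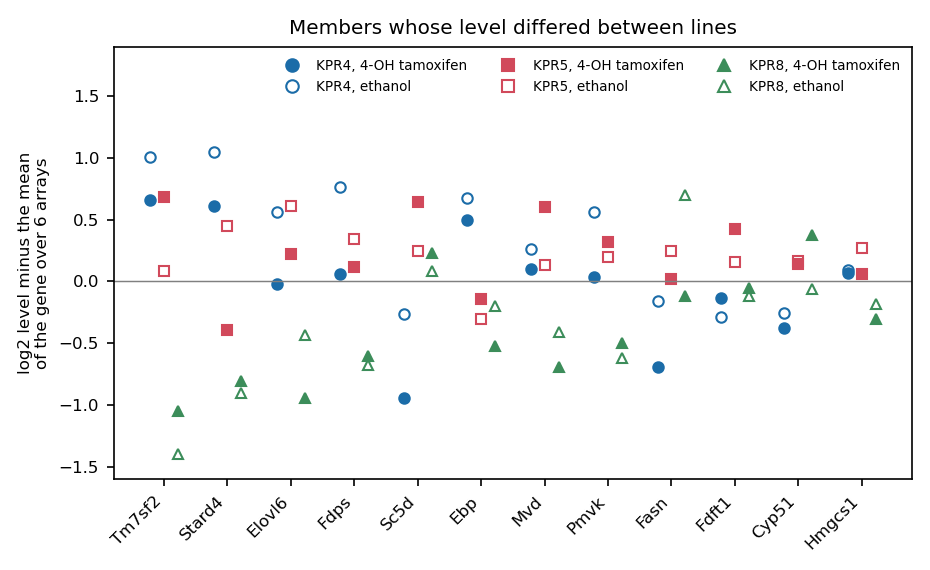
Log2 level of the 12 members past limma's F-test between lines, each array set against the gene's mean over the 6 arrays; filled symbols are 4-OH tamoxifen and open symbols ethanol, in KPR4, KPR5 and KPR8. Genes run from the widest range between lines, Tm7sf2, to the narrowest, Hmgcs1. Each gene is drawn on the probe set used. Other probe sets of Stard4 and Hmgcs1 gave another order of the lines, as did a dimmer Elovl6 probe set with 4-OH tamoxifen.

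Neighbouring steps of lipid metabolism were followed through 9 lists with 184 genes, of which 126 were tested. Of these 14 rose and 2 fell, where 10.5% and 8.94% of all genes did. The largest rises in these lists were in genes that move lipid out of or between particles and in phosphatidate metabolism. Pltp, the phospholipid transfer protein, read 9.13 in KPR4, 8.85 in KPR5 and 8.06 in KPR8 with 4-OH tamoxifen, against 6.53, 6.93 and 6.96 with ethanol. All drug-treated arrays lay above all vehicle arrays, and the change was 1.87 ± 0.22, or 3.66-fold (limma, adjusted p = 3.9e-05). Abcg1, a pump that exports sterols, rose by 1.05 ± 0.18 (adjusted p = 9.7e-04), and Lpin1, a phosphatidate phosphatase that also acts on SREBP in the nucleus, by 1.45 ± 0.18 (adjusted p = 5.5e-05), with a second probe set in the same direction. For both of these genes, too, all drug-treated arrays lay above all vehicle arrays, a separation seen upward in 7.48% of all genes.

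Of 12 tested genes of the LXR response, sterol efflux and oxysterol handling 3 rose and 0 fell: Pltp, Abcg1 and Osbpl6 (0.55), with a list median of 0.25. Among all genes tested 10.5% rose and 8.94% fell. Abca1, the exporter that loads cholesterol onto apolipoproteins, read 4.82 in KPR4, 4.43 in KPR5 and 4.89 in KPR8 with 4-OH tamoxifen, against 3.82, 4.14 and 4.78 with ethanol, with values close to the filter. It was higher in each line by its values, with overlapping groups, and its change of 0.47 ± 0.18 did not pass (limma, adjusted p = 0.0794). Nr1h3, encoding LXR alpha, lay between 2.53 and 3.11 on the 6 arrays and did not pass the filter. In SREBP processing and sterol-regulated degradation 1 of 15 genes rose, Lpin1, and 1 fell, Erlin1 (-0.80 ± 0.16), a sterol-responsive protein of the endoplasmic reticulum (limma, adjusted p = 0.00262). Of 5 other sterol pathway genes Pgrmc1, a haem-binding membrane protein, rose (0.48) and Lbr, a sterol reductase of the inner nuclear membrane, fell (-0.44). Of 17 isoprenoid and prenylation genes 0 passed in limma, and 1 had an unadjusted p under 0.05.

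Genes of fatty acid oxidation had 4 of 22 members higher and 0 lower, with a list median of 0.14, where 10.5% of all genes were higher and 8.94% lower. Slc25a20, the carnitine carrier of the inner mitochondrial membrane, rose by 0.80 ± 0.14 (limma, adjusted p = 0.00112), Acaa1a, a peroxisomal thiolase, by 0.78 ± 0.15 (adjusted p = 0.0017) and Acads, a short-chain dehydrogenase, by 0.63 ± 0.17 (adjusted p = 0.019). The fourth was Cpt1a, which commits fatty acids to the mitochondrion (0.63 ± 0.15, adjusted p = 0.00805). It falls outside the naming rule and was chosen with its values in view, and its call ended with the probe set of highest SD (0.12, adjusted p = 0.733). The changes of Slc25a20 in KPR4, KPR5 and KPR8 were 0.49, 1.18 and 0.74. In elongation, desaturation and activation 2 of 19 genes rose, Cyb5a (0.70), the electron donor of the desaturases, and Acss2 (0.61), which makes acetyl-CoA from acetate. The Acss2 differences within KPR4, KPR5 and KPR8 were 0.06, 1.22 and 0.56. In the remaining lists 1 of 10 genes of acetyl and NADPH supply rose, Idh1 (0.39), 1 of 14 of glycerolipid synthesis, Plin2 (0.48), which coats lipid droplets, and 1 of 12 of uptake, lysosomal release and storage, Lipa (0.47), the lysosomal acid lipase. Without KPR5, 7 of these 126 genes were called higher and 1 lower. Of the 16 neighbouring calls 7 held under every alternative that kept the line term, those of Pltp, Lpin1, Abcg1, Erlin1, Cyb5a, Slc25a20 and Acaa1a. Another 7 ended under at least 1 other filter, probe set choice or variance setting, with a highest adjusted p of 0.053 for Osbpl6, 0.241 for Lipa, 0.0664 for Lbr, 0.0751 for Pgrmc1, 0.0865 for Acss2, 0.0992 for Idh1 and 0.733 for Cpt1a. With 1 line left out 9 ended: these 7, Plin2 without KPR5 (adjusted p = 0.0694), and Acads without KPR4 or KPR5 (adjusted p up to 0.118). In whole cultures fewer cells of a kind and less RNA per cell cannot be told apart.

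**Figure D5:**
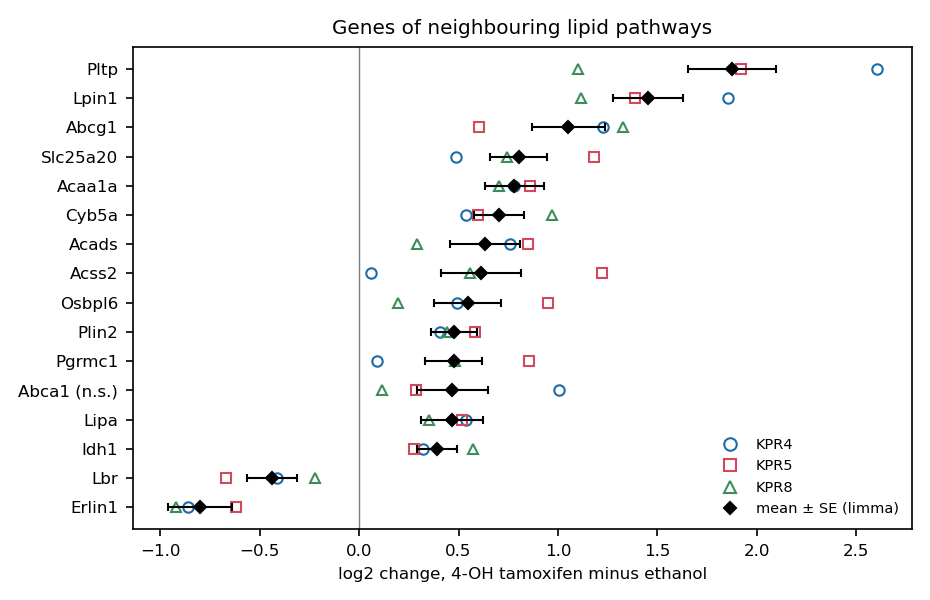
Log2 change, 4-OH tamoxifen minus ethanol, of the genes named from the neighbouring lipid lists, in KPR4, KPR5 and KPR8 (open symbols) and as mean with standard error from limma (black diamonds); n.s. marks an adjusted p above 0.05. Pltp, Lpin1 and Abcg1 stand furthest right, with means of 1.87, 1.45 and 1.05, and Erlin1 furthest left, at -0.80.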

How the data were processed

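Expression was measured on 6 arrays. The authors deposited log2 values, 1 per probe set. The submitters' processing notes name GCRMA 2.20.0 and R 2.11.0. The starting material was 100 ng of total RNA, amplified with the NuGEN Ovation kit, per the labels' protocols. GCRMA normalizes between arrays, so a shift common to nearly every gene would not show. The sources used here do not say which arrays were normalized together. The number of arrays limits the precision.

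Probe sets with 1 symbol in the platform annotation (20380 of 22690) were filtered at log2 4 on 3 of 6 arrays. Changes were fitted with limma 3.58.1 in R 4.3.3, with terms for cell line and treatment and a variance trend, over all 7644 genes, with Benjamini-Hochberg adjustment and a threshold of 0.05. The line is a block, since every line had a drug-treated and a vehicle culture. The pairing was checked by correlating the deviations of a line's arrays from their group means, which gave 0.876 for KPR4, 0.737 for KPR5 and 0.761 for KPR8. The residual degrees of freedom are 2, to which moderation adds 12.9, so p-values lean on the spread of other genes. The 95% intervals use the same spread. Line differences came from the F-test of the same fit. Changes within a line rest on 1 array each and have no test.

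The members and gene lists were chosen with earlier results of these data known. The members given on every array were those past the threshold, the 5 largest rises and falls, all fatty acid genes, Srebf1, Srebf2, Insig2 and the 5 widest ranges between lines. From the neighbouring lists up to 3 called genes per direction were named, and Abca1 and Nr1h3. Alternatives were other filters, probe set choices, normalizations, variance trends, a floor for low values, no line term, and each line left out. Promoter windows are RefSeq's for GRCm38.p6.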

Additional observations from a re-analysis of the deposited data

Results flagged for a closer look

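The median log2 change of the sterol genes, 4-OH tamoxifen minus ethanol, was below zero in KPR4 (-0.2119) and above it in KPR5 (0.1611) and KPR8 (0.121). Each of these values comes from 1 array per treatment, and the difference between the lines was not tested. The sign in KPR4 was seen in 25 of 28 probe sets of sterol genes past the filter, which share arrays. The difference between the 3' and 5' ends of Gapdh changed by 0.24, 0.29 and -0.40 across KPR4, KPR5 and KPR8, and its part in these medians was not tested.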

How the results depend on the processing

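The 4 calls among the members held under a stricter filter, median centring, quantile normalization and a floor at the highest control. Members called higher came to 1 with no filter, with the mean of all probe sets, with the probe set of highest SD and without a variance trend, which also left 1 neighbouring gene lower. The paired design carries the calls: with no replicate block for the line, 0 members and 0 neighbouring genes passed in limma (2 members had an unadjusted p under 0.05), and over all genes 22 were higher and 1 lower, against 805 and 683. With each line left out, 1 member was called in every case (0 to 1 higher, 0 to 1 lower), 7 to 11 members differed between lines, and 8 to 13 neighbouring genes were called (7 to 10 higher, 1 to 3 lower). At log2 1, 0 members were called in any line on the probe sets used, while other probe sets passed it for Insig2 in KPR8 and Scd2 in KPR5. With the mean of all probe sets the fatty acid median in KPR5 was -0.2978 and the sterol minus fatty acid median 0.265. With the probe set of highest SD these were -0.3069 and 0.3646, the fatty acid median was -0.5569 in KPR4 and -0.3669 in KPR8, and the sterol median in KPR4 was -0.4644. Under quantile normalization the fatty acid median in KPR8 turned to 0.008423.

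Members that turned sign were uncalled apart from Idi1. With the mean of all probe sets they were Hmgcs1 (0.060), Mvk (-0.074), Mvd (-0.032), Fdft1 (-0.0051), Sc5d (0.12), Acly (-0.021), Scd1 (-0.14) and Scd2 (-0.15). With the probe set of highest SD they were Mvd (-0.070), Idi1 (-0.084), Fdft1 (-0.079), Cyp51 (-0.098), Acly (-0.26), Scd1 (-0.33) and Scd2 (-0.50). Without KPR4 they were Pmvk (0.12), Sqle (0.092), Hsd17b7 (0.068) and Sc5d (0.27), without KPR5 Mvk (-0.086), Mvd (-0.22) and Tm7sf2 (-0.0028), and without KPR8 Cyp51 (-0.074), Nsdhl (-0.0050), Scd1 (-0.023), Scd2 (-0.017) and Srebf1 (0.068). The cause was not tested. Signal over background limits Acaca, which lies near the filter.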
